A study of Homo sapiens with 6 samples.

Results

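Olfactory receptor clusters are long runs of genes that code for odorant receptors, and the H3AcK9 peaks that lay in 3 of them were examined in SKOV3 WT cells. H3AcK9 is histone 3 acetylated at lysine 9, and a peak is a stretch of genome where the authors' peak caller found more sequenced fragments than background. The clusters were set by position in hg19 coordinates: chr11:4380000-6220000 in band 11p15.4, chr11:55000000-56600000 across 11q11-q12, and chr1:247600000-248850000 in 1q44. Every peak that shared at least 1 bp with a cluster was taken, which gave 1896 of the 3983296 peaks in the 5 deposited lists. The clusters span 4.69 Mb, and all of these peaks lay wholly inside them. The rest of chromosomes 1 and 11, which held 598148 peaks over 355 Mb, served as the comparison.

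SKOV3 WT is an established human ovarian carcinoma cell line. In the paper the suffix sets the parental cells apart from a carboplatin-resistant subline and from cells with a gene knockout. The cells were untreated, or treated for 24 h with vorinostat or with romidepsin at 1 times the IC50 of each drug, and H3AcK9 chromatin of each condition was sequenced as 1 ChIP sample. By the labels each treated sample was divided in 2 by the sequencing company and so has 2 peak lists. The paper elsewhere calls them independent experiments or biological replicates. They were counted here as 1 sample by the labels, and a treated value averages both lists. No difference between conditions could be tested against replicates, the 3 input samples enter no result, and the lists do not hold read depth.

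Olfactory receptors are G protein-coupled receptors of the nose. A mature olfactory neuron transcribes a single receptor gene, and in other tissues the clusters are taken as silent. Acetylated lysine 9 of histone 3 is found at active promoters. Histone deacetylases remove acetyl groups from lysines, and vorinostat and romidepsin both inhibit them, romidepsin with a preference for class I enzymes. The comparison asks whether H3AcK9 peaks appeared over these clusters when deacetylases were inhibited.

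By gene order in RefSeq (GRCh38.p14), the 11p15.4 run from OR52B4 to OR52W1 holds 55 olfactory receptor genes and 15 other genes. Among the latter are the beta-globin genes HBB, HBD, HBG1, HBG2 and HBE1, the metalloprotease gene MMP26 and the antiviral TRIM5 and TRIM22. The 11q11-q12 run from OR4A16 to OR5AK2 holds 46 receptor genes and 1 other, TRIM51, and the 1q44 run from OR2B11 to OR14I1 holds 43 receptor genes with GCSAML and TRIM58 between them. The reference is in another build than the peaks, so the ends of the runs were not matched to the ends of the intervals and no peak was assigned to a gene. Of the 144 receptor genes, 118 had a RefSeq promoter sequence, 250 bases before to 50 bases after the start. To show the kind of DNA that makes up the clusters, the promoters whose GC content is nearest to the median of each run follow, OR52A5 on the minus strand of chr11:5138307-5138606, OR4S2 on the plus strand of chr11:55648077-55648376 and OR14L1 on the plus strand of chr1:247616893-247617192, all 5′ to 3′ in GRCh38.p14 with each CpG in capitals.
OR52A5: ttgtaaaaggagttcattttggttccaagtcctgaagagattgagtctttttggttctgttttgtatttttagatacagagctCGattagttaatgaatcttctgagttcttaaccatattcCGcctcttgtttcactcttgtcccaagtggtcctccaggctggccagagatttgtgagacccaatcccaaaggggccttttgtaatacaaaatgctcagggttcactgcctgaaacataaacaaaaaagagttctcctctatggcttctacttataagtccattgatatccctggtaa
OR4S2: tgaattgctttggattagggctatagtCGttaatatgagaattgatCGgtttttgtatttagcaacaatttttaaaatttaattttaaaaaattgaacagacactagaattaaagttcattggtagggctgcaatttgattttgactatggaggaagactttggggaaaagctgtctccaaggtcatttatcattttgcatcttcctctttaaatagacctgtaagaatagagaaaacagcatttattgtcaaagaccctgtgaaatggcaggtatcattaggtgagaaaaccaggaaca
OR14L1: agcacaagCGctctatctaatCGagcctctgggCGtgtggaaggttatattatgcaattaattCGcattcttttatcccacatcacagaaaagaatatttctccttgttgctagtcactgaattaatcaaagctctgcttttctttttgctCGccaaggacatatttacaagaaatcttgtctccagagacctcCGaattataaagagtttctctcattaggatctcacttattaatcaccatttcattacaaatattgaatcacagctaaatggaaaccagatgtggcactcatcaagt
All have fewer CpG than the median promoter of the table. They contain 2, 2 and 6 CpG dinucleotides, and the median was 1 over the 118 receptor promoters, against 14 over all 35116 promoters of the table. No CpG was found in 19.5% of the receptor promoters and in 3.96% of all promoters. The median GC content was 36.7% in the receptor promoters and 58.7% in all. A search for TAATTA, a core bound by many homeodomain proteins, matched 28 of the 118 receptor promoters, or 23.7%, against 4.84% of all. CCCNNGGG, the core of sites of Ebf-type factors of olfactory neurons, matched 13 of the 118 receptor promoters, against 19.1% of all. Both motifs read the same on both strands and cannot overlap each other, and a match of letters is not a bound site. Neither share was set against promoters of like GC content, so motif and base composition were not separated.

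Without treatment the clusters were nearly bare of H3AcK9 peaks, though not empty. The untreated list held 134 peaks there, 28.6 per Mb, against 158 per Mb in the rest of both chromosomes. Untreated peaks covered 77539 bases or 1.65% of the clusters, and 15.9% of the rest, so coverage was 9.61 times lower in the clusters. The intervals of the clusters, known as silent in epithelium, were thus low in this mark but not free of it. The runs also hold genes other than receptors, and whether the untreated peaks lay at receptor genes was not tested. The 11q11-q12 cluster was the barest with 0.856% of its bases in untreated peaks, 19.3 times below the rest of chromosome 11. In 1q44 untreated coverage was 1.33%, 11.6 times below the rest of chromosome 1. In 11p15.4 it was 2.56%, 6.46 times below the rest of its chromosome, so the 3 clusters differed among themselves by more than 2-fold.

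All treated lists held more peaks in the clusters than the untreated list, and the bases covered were above untreated with vorinostat and near it with romidepsin. The vorinostat lists held 473 and 563 cluster peaks and the romidepsin lists 317 and 409, which is 3.87 and 2.71 times the untreated number as means of the lists. In the rest of both chromosomes peak number was 2.37 times higher with vorinostat and 2.45 times with romidepsin. Both vorinostat lists were further above untreated in the clusters than in the rest. The romidepsin lists differed: the first was at 2.37 times in the clusters and 2.45 times in the rest, the second at 3.05 and 2.46 times. The direction rests on peaks under 500 bp: with peaks of at least 500 bp alone, the cluster number was 0.744 times untreated with vorinostat and 0.433 times with romidepsin. Density of these peaks in the clusters, divided by that in the rest, was 0.107 untreated, 0.0970 with vorinostat and 0.0480 with romidepsin. With peaks of at least 150 bp the cluster number stayed above untreated, at 2.06 and 1.54 times. The lists also differ in the width of their shortest peaks, given below.
Covered bases gave a smaller difference. Vorinostat peaks covered 97392 and 110704 bases of the clusters, 2.08% and 2.36%, and romidepsin peaks 63282 and 78944 bases, 1.35% and 1.68%. With vorinostat, cluster coverage was 1.34 times the untreated value (1.26 and 1.43 by list), while that of the rest was 0.874 times (0.898 and 0.851). With romidepsin the cluster value was 0.917 times (0.816 and 1.02 by list) and that of the rest 0.958 times. With a score of at least 1 the romidepsin fold turned to 1.16 in the clusters, against 0.658 in the rest. The vorinostat lists lay on the same side of the untreated value, and the romidepsin lists lay on opposite sides. In percentage points of bases, the vorinostat difference in the clusters was 0.565, and in the rest it was -1.995. With peaks of at least 500 bp alone, the vorinostat fold of coverage was 0.566 in the clusters and 0.569 in the rest, and with each treated list cut to the untreated number of peaks by score that of the clusters was 0.485 and that of the rest 0.408.

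**Figure D1:**
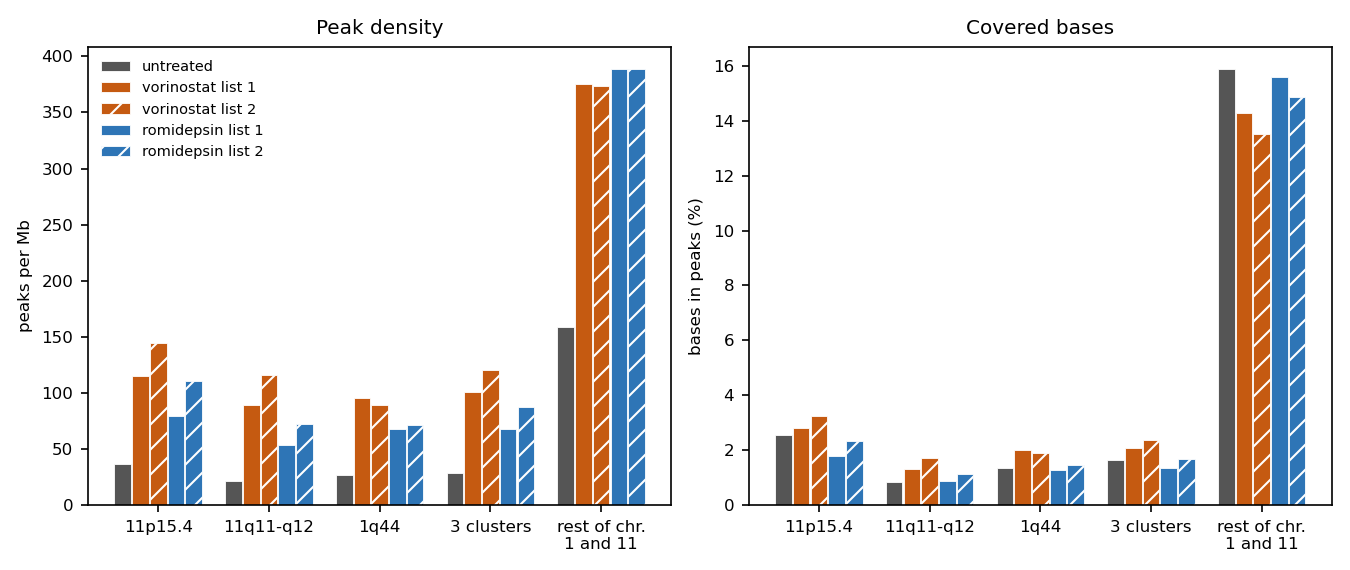
Peak density (left, peaks per Mb) and bases in peaks (right, percent) of each cluster, of the 3 clusters together and of the rest of chromosomes 1 and 11, with 1 bar for each peak list. Every cluster stayed below the rest in every list: untreated coverage was 1.65% against 15.9%, and the highest coverage of the 3 clusters together, in the second vorinostat list, was 2.36% against 13.5%.

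The clusters stayed depleted after treatment. Coverage was still 6.87 and 5.73 times below the rest in the vorinostat lists, and 11.5 and 8.83 times below it in the romidepsin lists. The clusters make up 1.30% of the compared length, yet held 0.238% of the untreated peaks (95% Clopper-Pearson interval 0.199 to 0.282). The share was 0.354% (0.323 to 0.387) and 0.423% (0.388 to 0.459) in the vorinostat lists, and 0.229% (0.205 to 0.256) and 0.295% (0.267 to 0.325) in the romidepsin lists. These intervals cover counting error of peaks alone, neighbouring peaks are not independent, and they do not compare conditions.

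The clusters were not alike. In 11p15.4 the peaks numbered 67 untreated, 212 and 266 with vorinostat, and 146 and 204 with romidepsin. Its covered bases were 47186 untreated, 51519 and 59493 with vorinostat, and 33118 and 42645 with romidepsin. Both vorinostat lists were above and both romidepsin lists below the untreated value, at 1.18 and 0.803 times as means.
In 11q11-q12 the peaks numbered 34 untreated, 142 and 185 with vorinostat, and 86 and 116 with romidepsin. Covered bases there were 13702 untreated, 20929 and 27335 with vorinostat, and 13997 and 18111 with romidepsin. All treated lists covered more of this barest cluster than the untreated list, by 1.76 times with vorinostat and 1.17 times with romidepsin.
In 1q44 the peaks numbered 33 untreated, 119 and 112 with vorinostat, and 85 and 89 with romidepsin. Its covered bases were 16651 untreated, 24944 and 23876 with vorinostat, and 16167 and 18188 with romidepsin. Vorinostat gave 1.47 times the untreated coverage here with both lists close together, and romidepsin 1.03 times with the lists on either side of the untreated value.

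**Figure D2:**
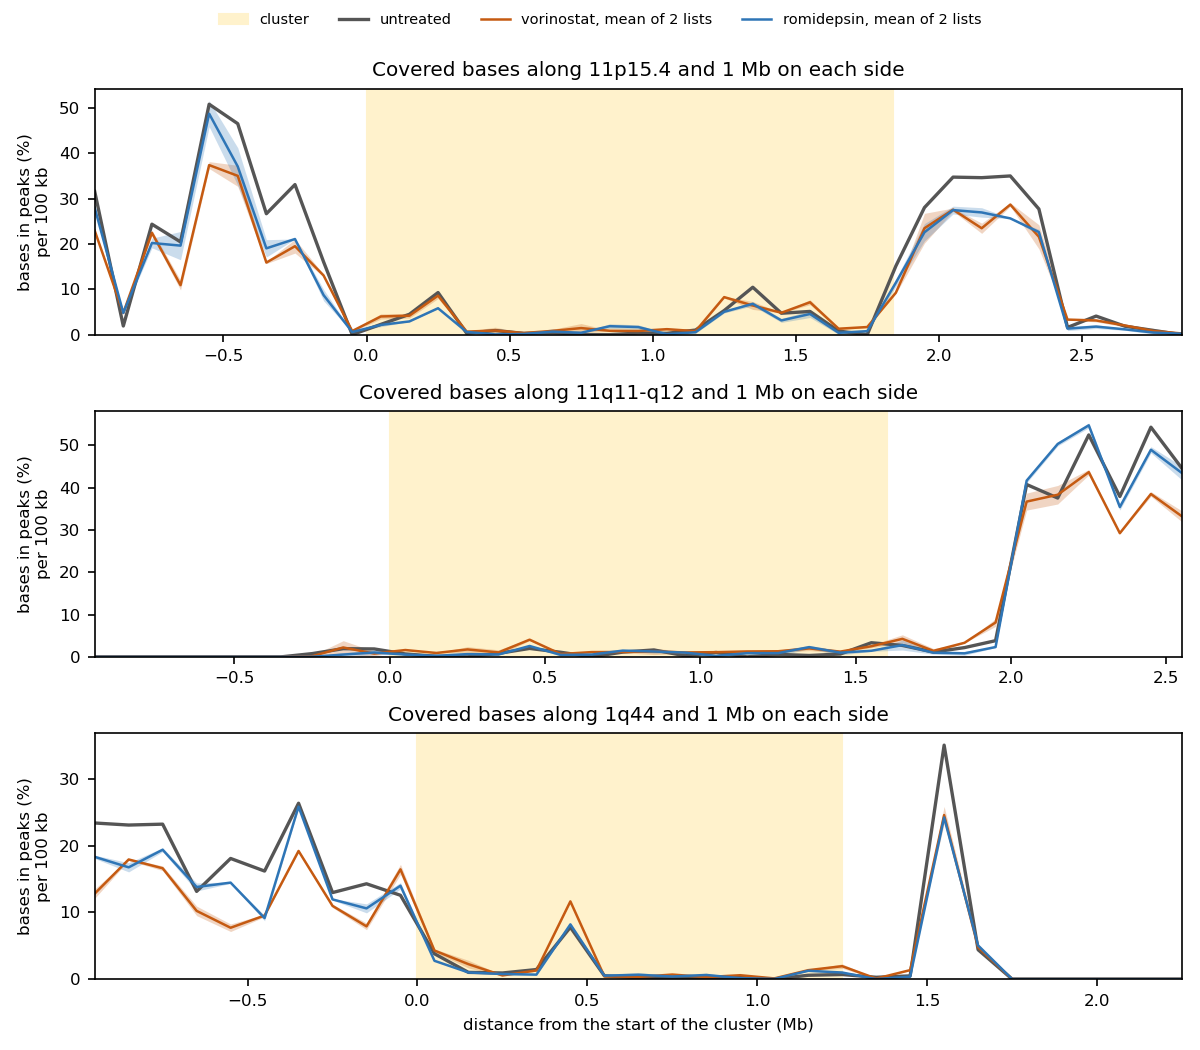
Bases in peaks (percent of each 100 kb) along each cluster and 1 Mb on each side, by distance from the start of the cluster in Mb. Lines show the untreated list and the mean of both lists of each drug, bands the range of the lists and shading the cluster. Coverage was lower inside than outside at the far end of 11p15.4 and at the start of 1q44, and inside the clusters single windows stood out. Before 11p15.4 it dropped outside the cluster, to 0% untreated in the adjoining window against 2.26% in the first cluster window. Before 11q11-q12 the far flank held no peak in any list, while the 2 windows next to the cluster were covered at 1.93% and 1.87% untreated, above the mean of that cluster.

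A few places carried much of the untreated coverage, and these are described by 100 kb windows. In 11p15.4 the window with the highest untreated coverage was chr11:4600001-4700000, with 9291 bases untreated, 9076 and 7622 with vorinostat, and 6064 and 5638 with romidepsin. It contains the widest untreated peak of that cluster, chr11:4643098-4646947, of 3850 bp. Vorinostat peaks covered 1332 and 1196 bases of it in 6 and 4 pieces, and romidepsin peaks 955 and 982 bases. The wide peak thus remained in fragments only.
The largest loss with both drugs in 11p15.4 was at chr11:5700001-5800000, from 9006 bases untreated to 4621 and 6014 with vorinostat and 5368 and 5570 with romidepsin. Inside it lay the widest peak of the first romidepsin list within 11p15.4, chr11:5705423-5706848 with 1426 bp, which had the same ends in both romidepsin lists. The largest gain with vorinostat was at chr11:5900001-6000000, where 4582 untreated bases compared with 7086 and 8013. Romidepsin left that window at 3780 and 5281 bases, on both sides of the untreated value. The largest gain with romidepsin was at chr11:5200001-5300000, from 127 bases untreated to 1628 and 2411, where vorinostat gave 1136 and 1177. Next to it, chr11:5100001-5200000 had no untreated peak, and 846 and 2407 bases with vorinostat and 492 and 398 with romidepsin. Not every wide peak was broken: the widest vorinostat peak in 11p15.4, chr11:4413874-4415795 of 1922 bp, covers all 1358 bases of the untreated peak that it overlaps.

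In 11q11-q12 the window with most untreated coverage, chr11:56500001-56600000, was also the one that lost most with each drug. It had 3341 bases untreated, 2178 and 2840 with vorinostat, and 1313 and 1566 with romidepsin. Its widest untreated peak, chr11:56550314-56552296 of 1983 bp, was covered over 802 and 551 bases by vorinostat peaks and over 483 and 478 bases by romidepsin peaks. Gains lay elsewhere in the cluster. At chr11:55400001-55500000 the coverage was 1989 bases untreated and 4280 and 3838 with vorinostat, against 2684 and 2452 with romidepsin. At chr11:56300001-56400000 it was 324 bases untreated, 2676 and 1927 with romidepsin, and 1468 and 2522 with vorinostat. The widest treated peaks of this cluster were narrow, 535 and 526 bp in the vorinostat lists and 617 and 487 bp in the romidepsin lists. Both of these romidepsin peaks lay where no other condition had a peak.

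In 1q44 a single window carried much of the signal in all lists. At chr1:248000001-248100000 the untreated list covered 7763 bases, the vorinostat lists 11726 and 11545, and the romidepsin lists 8412 and 7973. It contains the widest untreated peak of the 3 clusters, chr1:248019658-248023600 of 3943 bp. Its core was kept in every list, as a peak of 2718 and 2701 bp with vorinostat and of 2210 and 2299 bp with romidepsin. Elsewhere in the cluster chr1:248638629-248739998, of 101370 bp, had no peak in any list. The longest stretches without a peak in any list were 44676 bp in 11p15.4 (chr11:4728154-4772829) and 33990 bp in 11q11-q12 (chr11:55547431-55581420). At the start of the cluster, chr1:247600001-247700000 held 3792 untreated bases, 4507 and 4038 with vorinostat and 2744 and 2732 with romidepsin, so the drugs lay on opposite sides of the untreated value.

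Across the 46 windows of 100 kb that lie wholly in a cluster, the median untreated coverage was 0.63%, against 9.90% over 3542 windows of the rest. No cluster window reached that median of the rest untreated. Vorinostat coverage was above untreated in 36 of the 46 and romidepsin coverage in 24, while in the rest it was above in 44.5% and 41.8% of windows. The rest holds fuller windows, so these shares are not over like windows. Under 0.5% untreated, vorinostat was above in 94.7% of cluster windows and 85.2% of the rest. At 1 to 2% untreated it was above in 55.6% and 70.5%. For romidepsin these shares were 84.2% and 68.3% under 0.5%, and 33.3% and 39.2% at 1 to 2%. A fold was formed where untreated peaks covered at least 1000 bases, which left 18 cluster windows.
Of these 18, vorinostat was at least 1.5-fold higher in 4 and lower in 3, where 12.1% and 20.4% of all 2839 such windows of both chromosomes were. Romidepsin was at least 1.5-fold higher in 0 and lower in 8, where 8.59% were higher and 22.6% lower. The 28 cluster windows under 1000 bases, 6 of them without any untreated peak, gave no fold.

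Windows of the rest with little untreated acetylation had folds near those of the clusters. Among windows with under 4% of bases in untreated peaks, coverage with vorinostat was 1.76 times untreated over 39 cluster windows and 1.61 times over 1279 windows of the rest. With romidepsin the values were 1.16 and 1.09 times. Cluster windows of this group were barer, at 0.749% untreated against 1.12%, so the sums are not over like windows. Peak number in these windows was 4.46 times untreated in the clusters and 3.70 times in the rest with vorinostat, and 2.85 and 2.60 times with romidepsin. Over such windows the vorinostat value of the rest was thus above 1 as it was in the clusters, whereas over the whole rest it was 0.874.
Since windows are grouped here by the same untreated coverage that the fold is divided by, high folds in the barest class and low ones in the fullest are built into the grouping, and only clusters and rest within a class are set side by side. In the barest windows, under 0.5% untreated, vorinostat coverage was 4.84 times untreated over 19 cluster windows and 5.49 times over 533 of the rest. For romidepsin these values were 3.37 and 2.97 times. In percent of bases they remained small: 0.200% untreated, 0.965% with vorinostat and 0.673% with romidepsin in the cluster windows. In the rest these values were 0.117%, 0.641% and 0.347%, so its windows of this class were barer. The gain in percentage points was larger in the clusters, 0.766 against 0.524 with vorinostat and 0.474 against 0.230 with romidepsin. For vorinostat the fold and the points thus order clusters and rest in opposite ways here. Romidepsin coverage was below that of like windows of the rest in the classes from 1% untreated upwards, for instance 0.822 against 1.03 times at 1 to 2%, where the clusters have 9 windows. The vorinostat fold was lower in the clusters in each class under 4%. It was 1.61 against 1.85 at 0.5 to 1% and 1.35 against 1.54 at 1 to 2%. At 2 to 4% it was 0.951 against 1.31, and at 4 to 8% it was higher, 1.31 against 1.18. At 8 to 16% it was 0.747 against 0.990.

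**Figure D3:**
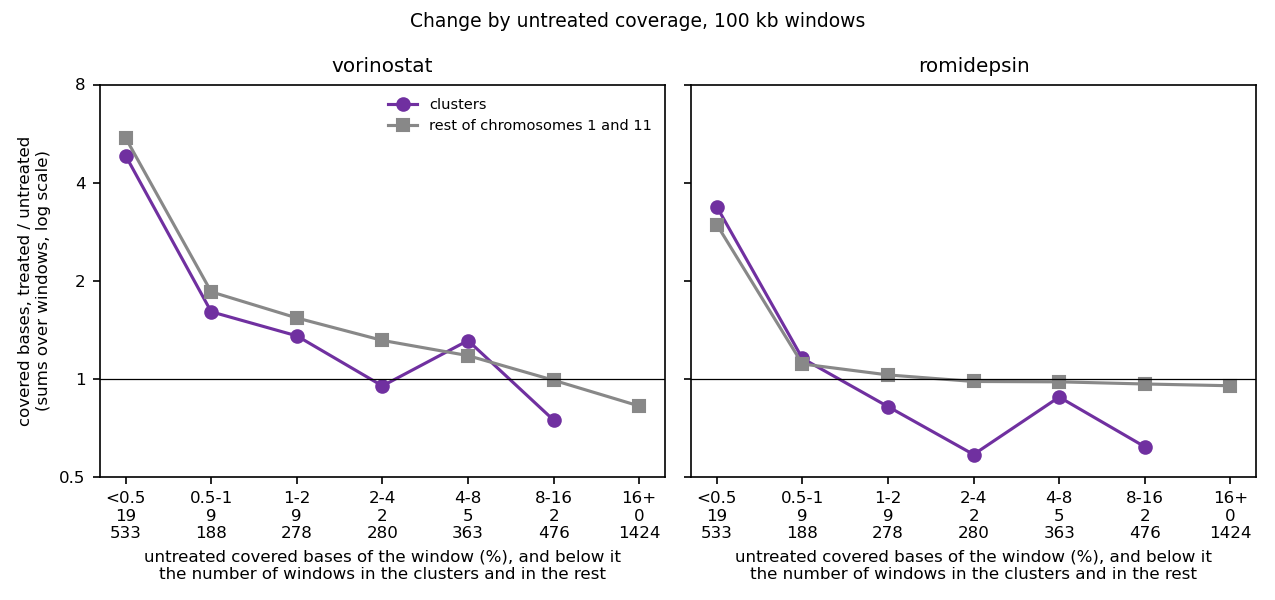
Covered bases with each drug divided by untreated (log scale), summed over 100 kb windows grouped by the percent of bases in untreated peaks, for the clusters (circles) and the rest of chromosomes 1 and 11 (squares). With vorinostat both lines ran from about 5-fold in the barest windows (4.84 and 5.49) to values below 1, and with romidepsin from 3.37 and 2.97. The slope is partly built in, since untreated coverage both groups the windows and divides the fold, and no cluster window lies in the class from 16% upwards.

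The peaks that the treated lists added were short. The median width of a cluster peak was 378.5 bp untreated, 151 and 141 bp with vorinostat, and 150 and 159 bp with romidepsin. In the rest the medians were 575 bp untreated, 223 and 219 bp with vorinostat, and 235 and 228 bp with romidepsin. Peaks under 150 bp, about the length of DNA on a nucleosome, made up 8.96% of the cluster peaks untreated, 49.9% and 52.8% with vorinostat and 49.8% and 47.2% with romidepsin. In the rest such peaks made up 5.84% untreated and from 30.8% to 33.0% in the treated lists. Cluster peaks were thus shorter than those of the rest in every list. The shortest peaks differed by list. In 11p15.4 the shortest untreated peak had 127 bp, while both vorinostat lists held peaks of 51 bp. The first romidepsin list held peaks of 50 bp there. Numbers and shares of short peaks thus compare lists with unlike shortest widths in that cluster. Whether a lower limit of width differed by list was not tested.
Wide peaks, at least 1 kb, are typical of active promoters. The clusters held 19 of them untreated, of which 16 lay in 11p15.4, 1 in 11q11-q12 and 2 in 1q44. There were 7 and 8 with vorinostat and 3 and 3 with romidepsin, and none of these lay in 11q11-q12. Wide peaks were also fewer with treatment in the rest: 15853 untreated, 9445 and 8589 with vorinostat, and 11187 and 10077 with romidepsin. Of the bases in the 19 wide untreated peaks, vorinostat peaks covered 51.9% and 51.1% and romidepsin peaks 38.5% and 42.3%. The same shares for the wide untreated peaks of the rest were 54.3% and 53.4%, and 57.1% and 56.4%. With romidepsin, less was left of wide peaks in the clusters than in the rest, and with vorinostat the shares were within 3 percentage points of each other.

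**Figure D4:**
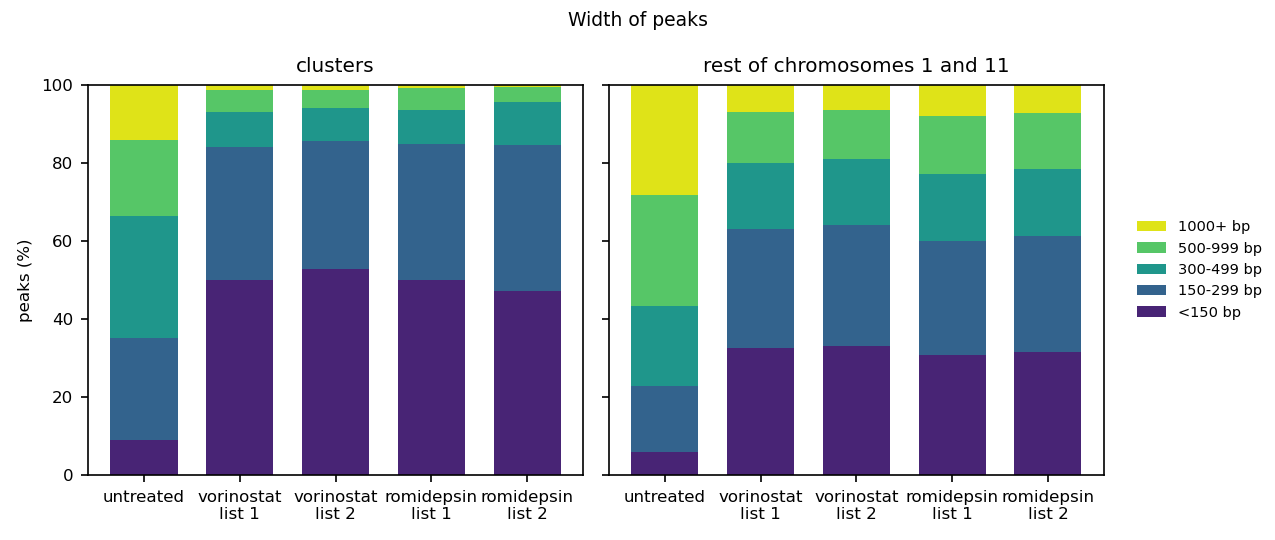
Share of peaks (percent) in 5 classes of width for each list, in the clusters (left) and in the rest of chromosomes 1 and 11 (right). In the clusters the class under 150 bp went from 8.96% untreated to between 47.2% and 52.8% in the treated lists, and in the rest from 5.84% to at most 33.0%. The shortest peaks differed by list, and in 11p15.4 no untreated peak was shorter than 127 bp.

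Treated peaks mostly lay where untreated cells had none. In the clusters 89.6% and 89.5% of the vorinostat peaks and 81.7% and 82.9% of the romidepsin peaks shared no base with an untreated peak, against 54.9% to 58.0% in the rest. That share depends on untreated coverage, 1.65% of the clusters and 15.9% of the rest, so it does not rank clusters and rest. The cluster peaks without overlap had median widths of 136 to 145 bp, and those that met an untreated peak were wider, 261 to 405 bp. The new peaks of both drugs joined to 1028 places, 219 per Mb, compared with 397 per Mb in the rest. Few of these places recurred: 633 of them (61.6%) came from a single list and 25 (2.43%) from all 4 treated lists, while in the rest 41.1% came from a single list and 10.4% from all 4. Places with vorinostat peaks alone numbered 598 (58.2%), with romidepsin peaks alone 362 (35.2%), and with both 68 (6.61%), where the last share was 21.1% in the rest. These shares depend on how much each list covers, so they do not rank clusters and rest either. The first vorinostat list, for instance, covered 2.08% of the clusters and 14.3% of the rest.

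A smaller share of the untreated peaks was met again in the clusters than in the rest. Of the 134 untreated peaks, 72 (53.7%) overlapped no treated peak and 17 (12.7%) were met in all 4 treated lists. In the rest, 17.4% and 44.6% did so. Relative to how much each treated list covers, the order was the other way. Untreated bases lay in peaks of the first vorinostat list 13.0 times as often as its coverage alone gives in the clusters and 3.17 times in the rest. For the first romidepsin list the values were 15.1 and 3.10 times. Such a ratio has a higher ceiling where a list covers less. The first vorinostat list covered 2.08% of the clusters and 14.3% of the rest, so the ratios do not rank clusters and rest. Of the 17, 14 lay in 11p15.4, 1 in 11q11-q12 and 2 in 1q44.
Lists of the same sample also overlapped by a smaller share in the clusters. Of the first vorinostat list's cluster peaks 63.8% overlapped a peak of the second, against 77.1% in the rest, and for romidepsin the shares were 65.9% and 80.5%. Relative to coverage, shared bases were 28.7 times in the clusters and 5.67 times in the rest for the vorinostat lists, and 41.3 and 5.32 times for the romidepsin lists. These ratios have the same higher ceiling in the clusters, so they do not rank clusters and rest either. The part of the difference between lists of a sample in the single-list places was not tested.

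Vorinostat lists covered more of the clusters than romidepsin lists. Vorinostat peaks covered 1.46 times the bases of romidepsin peaks in the clusters, 1.47 times in 11p15.4, 1.503 times in 11q11-q12 and 1.42 times in 1q44, and each vorinostat list exceeded each romidepsin list in all 3 clusters. With a score of at least 1, however, the ratio was 1.11, below the 1.199-fold spread of the romidepsin lists, and the lists of the drugs overlapped. In the rest the ratio was 0.913. For peak number the ratio was 1.43 in the clusters and 0.964 in the rest. With 1 sample per drug, the drug and the sample cannot be told apart.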

How the data were processed

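The authors deposited 1 H3AcK9 peak list for untreated cells and 2 for each treated sample. Per the labels, reads were aligned with BWA and peaks called with MACS 1.4.2. The labels name hg38, but peaks on chromosome 1 end at up to 249238565, beyond its hg38 length of 248956422, so the lists were read as hg19. The score deposited with each peak has no stated scale and was used only as a filter. Read depth is not in the lists, so the precision it gives is unknown. Promoters and gene order came from RefSeq tables of GRCh38.p14 and no coordinates were converted.

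Peaks per Mb and covered bases were computed with Python 3.11.15, NumPy 2.4.6 and pandas 2.3.3, intervals with SciPy 1.17.1 and figures with Matplotlib 3.10.9. The rest of each chromosome ran from its first to its last peak, less stretches of at least 1 Mb without a peak in any list. A fold used windows with at least 1000 untreated bases. Named regions were the widest peak of each list, the longest peak-free stretch, and the windows of highest and lowest untreated coverage and of largest change per drug. The functions recovered 18 of 18 simulated quantities, and 15 of 15 counts and coverages equalled those of bedtools 2.31.1. The clusters and measures were chosen with earlier results of these data known. Alternatives were filters on score, width and peak number, joining of peaks, each list or cluster alone, other comparison regions and other windows.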

Additional observations from a re-analysis of the deposited data

Results flagged for a closer look

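In 11p15.4 covered bases lay on opposite sides of the untreated value with the drugs, in both lists of each. Relative to untreated, coverage was 1.09 and 1.26 times in the vorinostat lists and 0.702 and 0.904 times in the romidepsin lists. The same held for the window chr1:247600001-247700000 in 1q44, with 1.19 and 1.06 times for vorinostat and 0.724 and 0.720 times for romidepsin. With 1 sample per drug these differences were not tested.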

How the results depend on the processing

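The values here are ratios of clusters to rest (density, and coverage in percent of bases) and folds of treated to untreated. The main density ratios were 0.180 untreated, 0.295 vorinostat and 0.199 romidepsin, and the coverage ratios 0.104, 0.16 and 0.0999. Of 190 recomputed values 107 stayed within the 95% counting interval of the peaks, or within 1.5 times for counts of windows, 80 moved further, and 3 that were past 1.5-fold crossed 1. Another 12 of the 86 folds, smaller than 1.5-fold, also crossed 1: 2 of vorinostat coverage, and 10 of romidepsin coverage, whose direction is therefore not settled. At least 22 of the 107 were the main value itself, since flanks as the comparison, gaps kept or midpoints could not alter them. The interval is that of peak numbers also for coverage, whose spread it does not measure. The cause of each move was not tested.

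With peaks of at least 500 bp, peak number reversed to 0.744 for vorinostat and 0.433 for romidepsin, and the vorinostat fold of coverage over that of the rest reversed to 0.995 (0.461 for romidepsin). Folds of coverage were then 0.566 and 0.303, density ratios 0.107, 0.0970 and 0.0480, and coverage ratios 0.0792, 0.0790 and 0.0365. With peaks of at least 150 bp, chosen after seeing the data, peak number was 2.06 and 1.54 times, coverage 1.08 and 0.750 times, the density ratios 0.213 and 0.1496 and the coverage ratios 0.136 and 0.0861 for vorinostat and romidepsin. With as many peaks as the untreated list, those of highest score, peak number was 1.47 and 1.27 times, coverage 0.485 and 0.394 times, the vorinostat fold over the rest 1.19, its density ratio 0.245, and the coverage ratios 0.124 and 0.0899. With a score of at least 1, the density ratios were 0.118 untreated and 0.235 vorinostat, the coverage ratios 0.0582 and 0.113, the romidepsin fold of coverage 1.16, and the folds over the rest 1.94 and 1.76.

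Joined across 1000 bp, coverage was 1.88 times with vorinostat and 1.35 times with romidepsin, the density ratios 0.232, 0.543 and 0.418, and the vorinostat coverage ratio 0.144. Joined across 300 bp, the density ratios were 0.336 and 0.237. With the first list alone, density ratios were 0.269 and 0.174 and coverage ratios 0.145 and 0.0866. With the second, coverage ratios were 0.175 and 0.113 and the romidepsin density ratio 0.224. Windows under 4% untreated, chosen after seeing the data, put the vorinostat fold over the rest at 1.09. Within each narrower class under 4% the vorinostat fold was lower in the clusters.

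For 11p15.4 alone the density ratios were 0.229, 0.355 and 0.254 and the coverage ratios 0.155, 0.215 and 0.133. For 11q11-q12 alone, the density ratios were 0.134 untreated and 0.169 romidepsin, the coverage ratios 0.0517, 0.108 and 0.0650, vorinostat peak number 4.81 times, coverage 1.76 and 1.17 times, and folds over the rest 2.07 and 1.25. For 1q44 alone, the density ratios were 0.244 and 0.175 with the drugs, and the coverage ratios 0.0859 untreated and 0.142 vorinostat.

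Of the windows, 2-fold left 0 lower with vorinostat and 5 with romidepsin, 200 kb windows 0 lower with vorinostat and 1 higher and 5 lower with romidepsin, and 50 kb windows 1 higher with romidepsin. A score of at least 1 left 6 windows, with 0 higher and 5 lower for vorinostat and 5 lower for romidepsin. Joined across 1000 bp, 11 were higher with vorinostat, and 4 higher and 4 lower with romidepsin. A flank of 2 Mb as the comparison, and peak-free gaps kept, altered 14 values, none beyond that interval. Peaks placed by midpoint could alter none, since all lie wholly inside. No paired analysis was possible because each condition has 1 ChIP sample. The lists hold no reads, so whether a short peak reflects depth was not tested.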
